A study of Mus musculus with 6 samples.

Results

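The 8 genes described here encode subunits of AP-1, a family of dimeric transcription factors: the Fos proteins (Fos, Fosb, Fosl1 and Fosl2), the Jun proteins (Jun, Junb and Jund) and the related factor Atf3. They were taken as a fixed list of names, 8 of the 21887 protein-coding genes in the RefSeq table used. A deposited peak was assigned to one of them if it overlapped the gene's span on mm10, or lay within 100 kb of it with that gene the nearest protein-coding gene. This gave 81 of the peaks in the 6 lists, which merged into 31 of 39374 regions. The rule itself uses names and positions, and the list was proposed with earlier results of these data known.

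The peaks came from CUT&RUN, an assay on isolated nuclei. An antibody to estrogen receptor alpha (ERα) brings a nuclease to the receptor, and the DNA cut free around it is sequenced. The nuclei were from the limbic system of adult C57/BL6 male mice whose gonads had been removed at 10 to 12 weeks of age. After 3 weeks the males received a subcutaneous injection of corn oil (vehicle, 3 libraries) or of 5 µg estradiol benzoate (estradiol, 3 libraries), and nuclei were collected 4 hours later. All 6 libraries thus come from gonadectomized males, and the strain tag is filled in for replicates 1 and 2 only, with the protocol text naming the strain for replicate 3. Whether each library is a separate animal or a pool is not stated in the labels, so the tests below measure the spread between libraries, which may be technical.

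AP-1 proteins carry a basic leucine zipper, and Fos proteins bind DNA only as partners of Jun proteins, whereas Jun proteins can also pair with each other. Fos, Fosb and Junb are immediate early genes whose RNA rises within minutes of neuronal activity, and Fos protein is a common marker of recently active neurons, while Jund is expressed at a steadier level. ERα bound to estrogen reaches DNA either directly, at estrogen response elements, or through other factors, AP-1 among them, and Fos and Jun are known estrogen-responsive genes in uterus and breast.

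The lists were of unequal length. They held 5421, 13717 and 20541 peaks in vehicle replicates 1, 2 and 3 and 11082, 14123 and 17558 in estradiol replicates 1, 2 and 3. Vehicle replicate 1 had the shortest list. Both replicate 3 libraries differ from the others in the style of their peak names and have shorter labels. The number of fragments at each summit was estimated from the deposited fold and p-value. The median was 6 and the smallest 4 in every library, so a typical peak rests on very few fragments, and a missing peak is not evidence that ERα was absent. Limbic tissue holds many cell types, and fewer cells with bound receptor and less binding per cell cannot be told apart in these lists. Peaks do not measure expression, so the labelled tissue could not be checked against marker RNA. A peak in at least 1 library was assigned to 3 of 4 markers of glutamatergic neurons, 4 of 4 of GABAergic neurons, 3 of 4 of astrocytes, 4 of 4 of oligodendrocytes, 3 of 4 of microglia and 3 of 3 of endothelium. The share among all genes was 61.7%.

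Jun, Junb and Fos had peaks within the 250 bases before their annotated start sites, and these bases are shown for that reason. Some of the Jun peaks extend beyond them. The sequences are from RefSeq (GRCm38.p6, the coordinates of mm10) and are written 5′ to 3′ on the strand of the gene. The stretches are chr4:95052223-95052472 on the minus strand (Jun), chr8:84978749-84978998 on the minus strand (Junb) and chr12:85473640-85473889 on the plus strand (Fos). Capitals mark matches to TGACNTCA, to TGACG (the half-site of the cAMP response element TGACGTCA), to the CCAAT box and, in Fos, to the TATA motif TATAAA.
Jun: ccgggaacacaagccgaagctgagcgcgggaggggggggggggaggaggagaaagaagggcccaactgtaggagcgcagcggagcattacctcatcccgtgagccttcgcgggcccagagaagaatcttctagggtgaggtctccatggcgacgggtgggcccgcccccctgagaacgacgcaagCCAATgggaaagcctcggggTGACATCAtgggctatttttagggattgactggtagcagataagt
Junb: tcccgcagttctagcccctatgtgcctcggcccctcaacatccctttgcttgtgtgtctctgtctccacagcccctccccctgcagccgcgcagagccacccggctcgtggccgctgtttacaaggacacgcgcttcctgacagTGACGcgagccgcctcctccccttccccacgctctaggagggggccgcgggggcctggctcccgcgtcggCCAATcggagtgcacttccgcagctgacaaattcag
Fos: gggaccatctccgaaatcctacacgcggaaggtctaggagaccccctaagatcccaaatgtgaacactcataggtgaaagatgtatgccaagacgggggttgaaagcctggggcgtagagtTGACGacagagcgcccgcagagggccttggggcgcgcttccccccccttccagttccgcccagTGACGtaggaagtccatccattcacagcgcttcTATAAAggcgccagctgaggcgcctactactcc

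Jun, the partner that all Fos proteins can use, was the 1 member of 8 with a peak within 1 kb of a gene end, called gene-end here, in all 6 libraries. By the same rule 9.39% of all protein-coding genes had one. All other assigned peaks, inside the gene or outside it, are called distal here, however close to the 1 kb limit. A gene-end peak in at least 1 library was found for 6 of 8 members, all but Fosl1 and Atf3, against 37.7% of all genes. The Jun region (chr4:95052204-95052517) ran from -295 to 18 bp from the start site. Its summit held 15, 23 and 16 fragments in vehicle replicates 1, 2 and 3 and 18, 26 and 19 in estradiol replicates 1, 2 and 3. The groups overlapped, and replicate 2 was the highest of each. Ranked by −log10 q within its own list, the peak stood between percentile 87.0 (vehicle replicate 3) and percentile 98.2 (estradiol replicate 2). Its deposited fold enrichment over the caller's background was 9.79 to 16.0, and its −log10 q 12.9 to 27.5. The summits lay at -134, -78 and -80 bp in the vehicle libraries and at -105, -80 and -105 bp in the estradiol libraries. The CCAAT match (-65 to -61) and the match TGACATCA (-45 to -38), both in capitals above, were inside the peak of each of the 6 libraries. A match to TGACNTCA on either strand was present in 7.49% of all 32851 promoter entries and a CCAAT match in 33.8%. A match to the GC box GGGCGG on the other strand (-89 to -84), not in capitals above, was also inside each of the 6 peaks. That motif matched in 32.7% of the entries.

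Jun had 2 further regions, both weaker. The one at chr4:95053318-95053384, 1.10 kb upstream of the gene, had a peak of 9 fragments in vehicle replicate 3 and of 7 in estradiol replicate 1. The one at chr4:95121215-95121245 lay 69.0 kb upstream, the farthest of all 31 regions, and was listed in estradiol replicate 3 with 4 fragments. Among the 2054 other genes with a gene-end peak in all 6 libraries, the 3 whose within-list percentiles were most like those of Jun were H4c2, Hspa8 and H4c8. H4c2 and H4c8 are histone H4 genes with near-identical copies, so reads of them may be shared between copies, and Hspa8 encodes a constitutive chaperone. The mean absolute differences over the 6 libraries were 1.93, 2.01 and 2.16 percentile points.

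Junb, which encodes a Jun protein that often restrains the activity of Jun, had 2 regions that were each found in 5 libraries. The region chr8:84978750-84978954 covered the promoter from -206 to -2 bp. Its summit held 7, 12 and 11 fragments in vehicle replicates 1, 2 and 3, no peak was listed in estradiol replicate 1, and estradiol replicates 2 and 3 had 10 and 6. Estradiol replicate 3 was the weakest, with a −log10 q of 2.12 near the calling threshold (percentile 3.60 of its list). The CCAAT match (-36 to -32) was inside the peaks of vehicle replicate 2 and estradiol replicates 2 and 3. The TGACG match (-106 to -102) was inside those of vehicle replicates 2 and 3 and estradiol replicate 2. The other Junb region, chr8:84979960-84980099, lay 1.21 kb upstream. It held 6, 11 and 9 fragments in vehicle replicates 1, 2 and 3 and 7 and 8 in estradiol replicates 1 and 3, with no peak in estradiol replicate 2. Neither region was missing from a vehicle library, and each was missing from 1 estradiol library whose other Junb region was listed. A further Junb region, at chr8:84976629-84976691 beyond the 3′ end, was listed in estradiol replicate 2 with 9 fragments.

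Jund, the Jun protein that is least dependent on stimulation, had its recurrent region inside the gene, at chr8:70698735-70698978, from 996 to 1239 bp downstream of the annotated start. All 6 libraries listed it, with 7, 14 and 18 fragments in vehicle replicates 1, 2 and 3 and 7, 19 and 13 in estradiol replicates 1, 2 and 3. Replicate 1 was the lowest of both groups and the ranges overlapped almost fully. This region sits on the 1 kb limit. The peaks of vehicle replicates 2 and 3 lay 996 bp from the gene end and counted as gene-end. Those of the other libraries lay 1012 bp (estradiol replicates 2 and 3) or 1100 bp (replicate 1 of both groups) away and counted as distal. The gene-end count of Jund, 0, 1 and 2 in vehicle and 0, 0 and 0 in estradiol libraries, therefore depends on where the edge of the peak was called. Another region beyond the 3′ end (chr8:70700733-70700799) was listed in vehicle replicate 3 with 11 fragments. Just outside the limit lay also an upstream region each of Fosl2 (1027 bp), Jun (1096 bp) and Junb (1212 bp). With 2 kb in place of 1 kb, 4 of 8 members (Fosb, Jun, Junb and Jund) had a gene-end peak in all 6 libraries, against 10.1% of all genes. At that limit the whole span of Junb (1840 bp), Jund (2878 bp), Jun (3187 bp) and Fos (3385 bp) counts as gene-end, and Fos was not among the 4. The 10.1% is not matched for gene length.

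**Figure D1:**
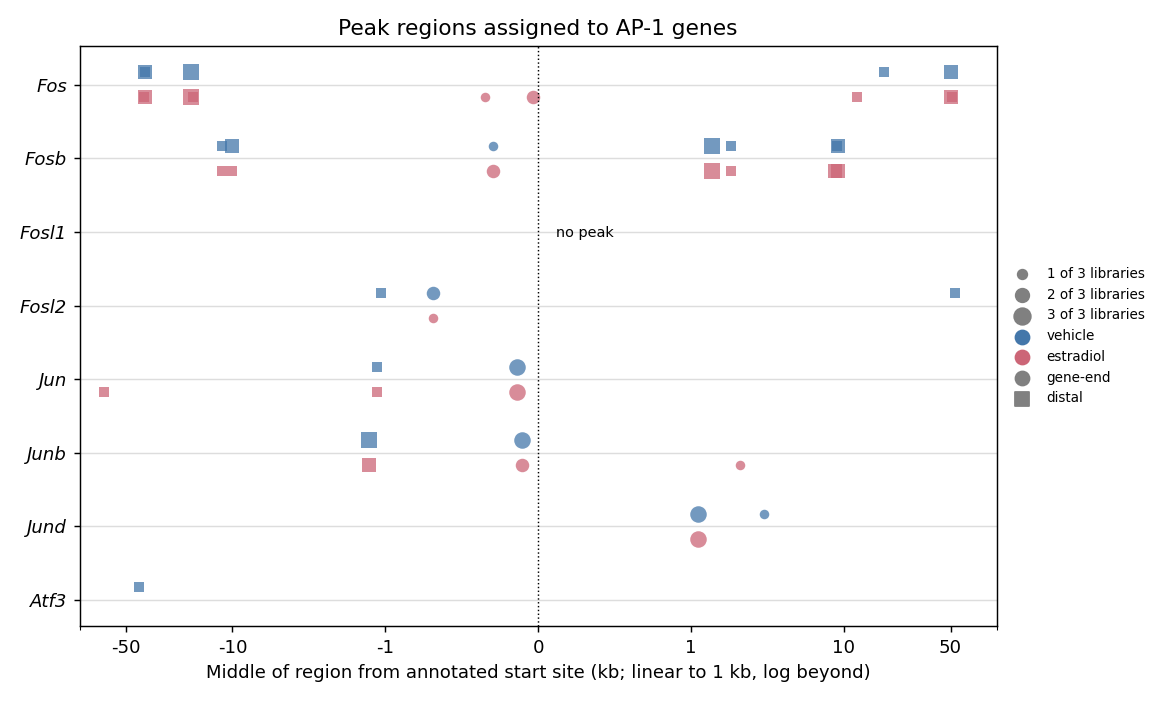
Regions assigned to the 8 AP-1 genes, by the distance in kb of their middle from the annotated start site (negative is upstream; linear to 1 kb, logarithmic beyond). Upper marks are vehicle and lower marks estradiol, and larger marks stand for more of the 3 libraries. Circles stand for gene-end and squares for distal regions, classed by the edges of the merged region. Jun, Junb, Jund and Fosb have recurrent regions close to the start, those of Jund and Fosb inside the gene. Fos has its recurrent region upstream, and Fosl1 has none.

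Fos, the founding member, differed from Jun in that its most recurrent region was distal. The region chr12:85455164-85455534, 18.4 kb upstream of the gene, was found in all 6 libraries. Its highest summit held 9, 17 and 17 fragments in vehicle replicates 1, 2 and 3 and 12, 12 and 13 in estradiol replicates 1, 2 and 3. The estradiol values lay between the lowest and the highest vehicle values. It stood at percentile 73.9 to 94.3 of the vehicle lists and 84.8 to 88.4 of the estradiol lists. Vehicle replicate 3 and estradiol replicate 1 each listed 2 separate peaks in it. A distal peak in all 6 libraries was assigned to 2 of 8 members, Fos and Fosb, against 4.84% of all genes. In Fosb the region concerned lay inside the gene, 1284 to 1473 bp downstream of the start site. The 4.84% is not matched for the number of peaks, and Fos and Fosb had more peaks than 99.3% and 99.1% of all genes. Of the other distal Fos regions, 2 were found in 4 libraries. The one at chr12:85436350-85436457, 37.4 kb upstream, held 4 and 9 fragments in vehicle replicates 2 and 3 and 4 and 6 in estradiol replicates 1 and 2. The one at chr12:85524586-85524635, 47.3 kb downstream, held 7 and 5 fragments in vehicle replicates 2 and 3 and 5 and 6 in estradiol replicates 1 and 3.

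At the Fos promoter, peaks were listed in estradiol libraries only. The region chr12:85473829-85473881, from -61 to -9 bp, had 9 fragments in estradiol replicate 2 (−log10 q 9.03, percentile 79.7 of its list) and 6 in estradiol replicate 3 (4.35, percentile 51.0). No peak was listed there in estradiol replicate 1 or in vehicle replicates 1, 2 and 3. The TATAAA match shown above lies in this region, and the second TGACG match ends directly before it. A neighbouring region at chr12:85473521-85473564 was listed in estradiol replicate 2 with 5 fragments. Gene-end peaks at Fos thus numbered 0, 0 and 0 in the vehicle and 0, 2 and 1 in the estradiol libraries, so the groups overlap at 0. A peak in 2 or 3 estradiol and 0 vehicle libraries was found for 3.71% of all regions, and a region of that kind was assigned to 5.05% of all genes. With 3 libraries against 3, no single region can give an exact p under 0.1.

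Fosb, whose shortened splice form ΔFosB accumulates in neurons after repeated stimulation, had the highest single peak of the family, in vehicle replicate 3. The region chr7:19308572-19308761 lay inside the gene, 1284 to 1473 bp downstream of the start site, and was found in all 6 libraries. Its summit held 8, 19 and 44 fragments in vehicle replicates 1, 2 and 3 and 8, 20 and 33 in estradiol replicates 1, 2 and 3. Replicate 1 was the lowest and replicate 3 the highest in both groups, and the groups overlapped. The 6 summits lay within 1397 to 1420 bp of the start. The peak stood at percentile 66.0 and 70.5 in vehicle and estradiol replicate 1 and between 96.3 and 98.8 in the other 4 lists. It was above the Jun gene-end peak in replicate 3 of both groups only. In replicates 1 and 2 of both groups the Jun peak had more fragments and the higher percentile.

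Fosb had 7 weaker regions. The most recurrent, chr7:19300791-19300854, 1.84 kb beyond the 3′ end, held 7 and 12 fragments in vehicle replicates 2 and 3 and 7 and 9 in estradiol replicates 2 and 3. Close to it, chr7:19301259-19301296 (1.40 kb beyond the 3′ end) was listed in estradiol replicates 1 and 3 with 6 and 9 fragments and in no vehicle library. The region nearest the promoter, chr7:19310315-19310368 (-323 to -270 bp), had 11 fragments in vehicle replicate 3 and 5 and 8 in estradiol replicates 1 and 2.

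**Figure D2:**
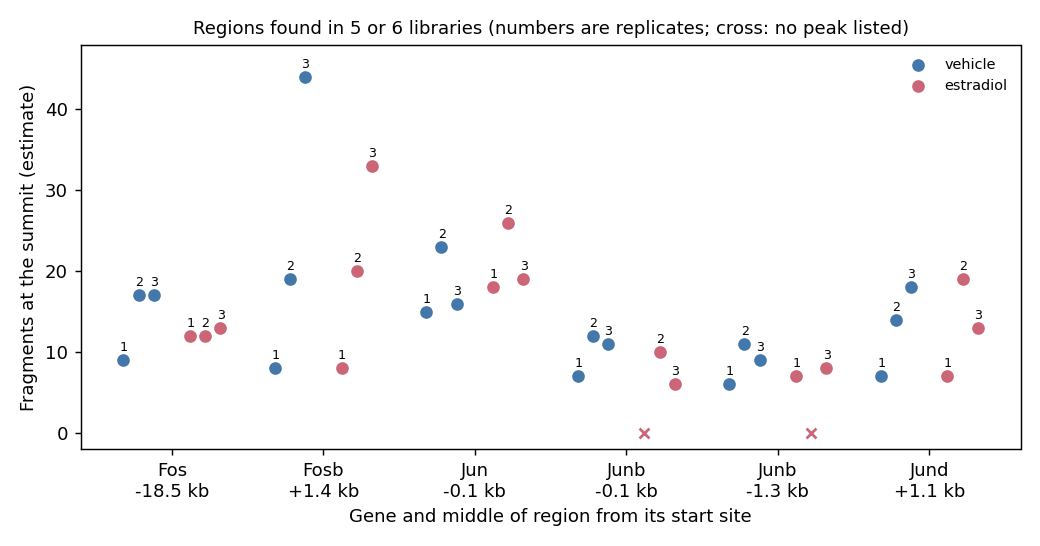
Estimated fragments at the summit in each library for the AP-1 regions found in 5 or 6 libraries, labelled by gene and by the distance of the middle of the region from the start site. Points are libraries, numbered by replicate; a cross at 0 means that no peak was listed, and vehicle and estradiol points overlap at each region, with the widest range at Fosb (8 to 44 fragments).

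Fosl2, Fosl1 and Atf3 had few peaks or none. Fosl2, which encodes the Fos protein Fra-2, had a gene-end region at chr5:32135722-32135844 (-750 to -628 bp) with 8 and 7 fragments in vehicle replicates 2 and 3 and 7 in estradiol replicate 1. Its other 2 regions were each listed in 1 vehicle library. Atf3, a stress-induced factor that pairs with Jun proteins, had 1 region, 41.0 kb upstream (chr1:191224383-191224453), listed in vehicle replicate 3 with 5 fragments. Fosl1, which encodes Fra-1, had no assigned peak in any library. Of the regions within 100 kb of Fosl1, 12 of 12 lay nearer to another gene, the closest at 1.59 kb from Fosl1. The genome claimed by each gene under the nearest-gene rule differed widely, from 7.90 kb for Junb to 138 kb for Jun, and was 18.4 kb for Fosl1.

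Per gene, Fos had 4.17 peaks per library on average and Fosb 3.83, more than 99.3% and 99.1% of all protein-coding genes. Junb followed with 1.83, Jun with 1.50, Jund with 1.17, Fosl2 with 0.833 and Atf3 with 0.167, and the median gene had 0.333. Relative to the genome claimed, Junb was the densest, with 2.32 peaks per 10 kb and library, then Fosb (1.39), Jund (0.917), Fos (0.367), Jun (0.109), Fosl2 (0.0986), Atf3 (0.0215) and Fosl1 (0.00). Over all protein-coding genes the value was 0.0654. That value covers all bases within 100 kb of a gene and is not matched for the size of the genome claimed. A region found in all 6 libraries was assigned to 4 of 8 members (Fos, Fosb, Jun and Jund), against 13.3% of all genes, a share not matched for the number of peaks. Such regions made up 4 of the 31, against 7.27% of all regions. With lists of equal length 3 AP-1 regions were of that kind, and 0 when the peaks of each library had to cover 50% of the merged region. Gene-end regions made up 9 of the 31 (29.0%), close to the 27.4% among all regions assigned to genes within 100 kb. The 9 include the Jund region on the 1 kb limit, classed by its merged edge. Its peaks in vehicle replicate 1 and in estradiol replicates 1, 2 and 3 counted as distal. Of the 31 regions, gene-end or distal, 14 were found in 1 library (58.9% of all regions were), 7 in a vehicle and 7 in an estradiol library, with 4 to 11 summit fragments.

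**Figure D3:**
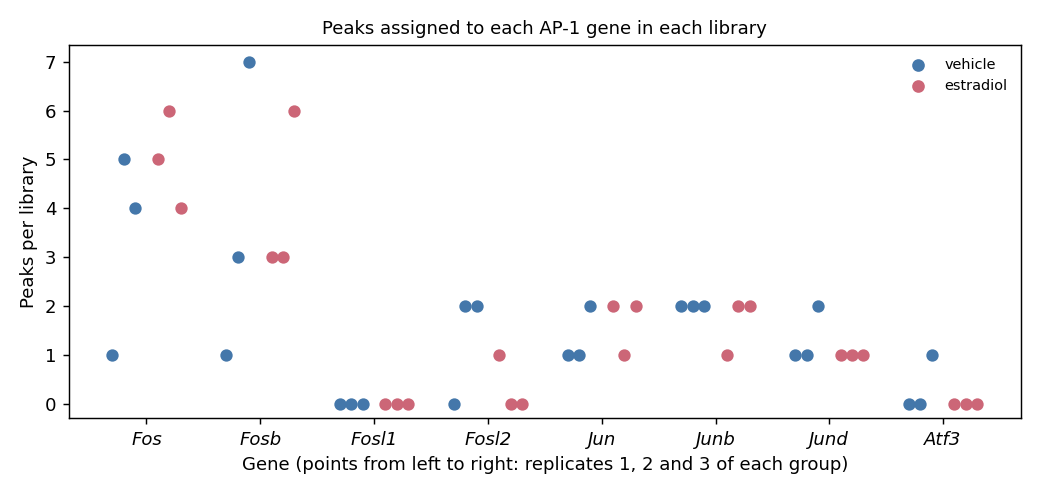
Number of peaks assigned to each AP-1 gene (vertical axis, peaks per library) in each library, with replicates 1, 2 and 3 from left to right within a group. Fos and Fosb have the most peaks, up to 6 and 7 in a library, and the vehicle and estradiol points of each gene overlap.

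The design asks whether ERα peaks at these genes differed between estradiol and vehicle. No difference larger than the spread between libraries was found. All AP-1 peaks together numbered 6, 14 and 20 in vehicle replicates 1, 2 and 3 and 13, 13 and 15 in estradiol replicates 1, 2 and 3. The means were 13.3 ± 7.02 (SD, n = 3) and 13.7 ± 1.15 (SD, n = 3), a difference of 0.333 (two-sided exact permutation p = 1, smallest possible 0.1). The vehicle counts spanned those of estradiol. The direction turned to -3.33 without vehicle replicate 1, the shortest list, and to -0.333 without estradiol replicate 3, and grew to 3.67 without vehicle replicate 3. Within replicates 1 and 2 the difference was 3 peaks, and in replicate 3, with 1 library per group, it was -5.

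Gene-end peaks numbered 2, 4 and 6 in the vehicle and 3, 6 and 3 in the estradiol libraries, with a mean of 4 in both groups (SD 2 and 1.73, n = 3, exact permutation p = 1). Distal peaks, including those inside a gene or just over 1 kb from its ends, numbered 4, 10 and 14 against 10, 7 and 12. Their means were 9.33 ± 5.03 and 9.67 ± 2.52 (SD, n = 3), which differ by 0.333 (exact permutation p = 1). With a 2 kb limit, gene-end peaks numbered 5, 7 and 13 in the vehicle and 8, 9 and 9 in the estradiol libraries. Many of the distal peaks thus lay 1 to 2 kb from a gene end. Distal peaks differed by -2.33 without vehicle replicate 1 and by -0.833 without estradiol replicate 3. The gene-end difference was -1 without vehicle replicate 1 or without estradiol replicate 2 and 1 without vehicle replicate 3. Within replicates 1 and 2 both differences were 1.50, and in replicate 3 they were -3 (gene-end) and -2 (distal). Per 1000 peaks of the library, AP-1 peaks numbered 1.11, 1.02 and 0.974 in the vehicle and 1.17, 0.920 and 0.854 in the estradiol lists. This gave 1.03 ± 0.0675 against 0.983 ± 0.168 (SD, n = 3), which differ by -0.0511 (exact permutation p = 0.700). It turned to 0.0131 without estradiol replicate 3. Within replicates 1 and 2 it was -0.0169 and in replicate 3 -0.119. Replicate 1, with the shortest list of its group, had the highest share in both groups.

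**Figure D4:**
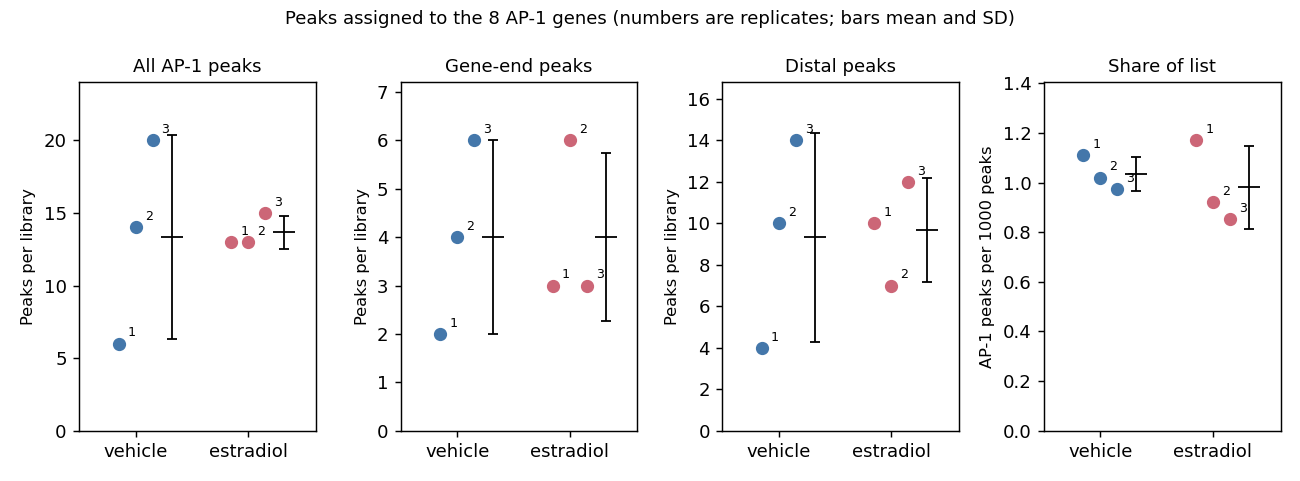
Peaks assigned to the 8 AP-1 genes in each library, in all, at gene ends and distal (peaks per library), and per 1000 peaks of the list. Points are libraries, numbered by replicate, and bars give the mean and SD of 3 libraries; vehicle and estradiol points overlap in each panel, and vehicle replicate 1 has the fewest peaks.

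No AP-1 region had a peak in 3 of 3 estradiol and 0 of 3 vehicle libraries, a kind that made up 0.737% of all regions, and none showed the reverse (0.112%). With so small a background, a count of 0 among 31 regions does not set these genes apart. With the rule loosened to 2 estradiol and 0 vehicle libraries, 2 of 31 regions qualified (3.71% of all regions), the Fos promoter region and the Fosb region beyond the 3′ end given above, and 0 of 31 did so for vehicle (2.60% of all regions). The number of peaks was higher in every estradiol than in every vehicle library for 0 of 8 members (0.635% of all genes) and lower in every one for 0 of 8 (0.206%).

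Other genes of the pathway were counted by the same rules. Among 14 AP-1 partners and related basic leucine zipper genes, 4 had a gene-end peak in all 6 libraries (Atf4, Atf2, Atf7 and Crem), against 9.39% of all genes. Atf4, a factor of the integrated stress response, stood highest, at a median percentile of 95.0. None of the 14 had an estradiol-only region, that is, one in 3 of 3 estradiol and 0 of 3 vehicle libraries. Among 16 kinases and transcription factors upstream of AP-1, 8 had a gene-end peak in all 6 libraries, against the same 9.39%. The 4 with the highest median percentile were Rps6ka5 (97.6), a kinase of histone H3 and CREB, Mrtfa (95.3), a coactivator of serum response factor, Map2k7 (88.7) and Mapk9 (82.0). Map2k4 and Map2k7, the kinases that activate the Jun N-terminal kinases, each had an estradiol-only region, against 1.09% of all genes. The median gene of the 16 had 1.50 peaks per library, against 0.333 over all genes. The 1.09% is not matched for this number of peaks. The Map2k4 region (chr11:65721772-65721836, inside the gene) held 5, 8 and 13 fragments in estradiol replicates 1, 2 and 3. The Map2k7 region (chr8:4239130-4239224, at a gene end) held 14, 7 and 22. Map2k7 had 1, 1 and 1 peaks in the vehicle and 2, 2 and 2 in the estradiol libraries. It was the 1 gene of the 16 with more peaks in every estradiol than in every vehicle library, against 0.635% of all genes. The estradiol-only region supplies at least 1 of the peaks in each estradiol library, so this count is not a separate observation.

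For comparison, 13 other activity-induced genes were counted. Of these, 1 had a gene-end peak in all 6 libraries (Egr1, median percentile 89.7), against 9.39% of all genes and the same number as among the 8 AP-1 genes. None had an estradiol-only region or a vehicle-only one, the latter assigned to 0.201% of all genes. Egr4, a zinc finger factor of the same family as Egr1, had 0, 0 and 0 peaks in the vehicle and 1, 1 and 2 in the estradiol libraries, the 1 gene of the 13 whose groups did not overlap. Among all genes 0.635% were higher and 0.206% lower in every estradiol library. The median gene of this list and of the AP-1 genes had 1.33 peaks per library. No difference between the lists was tested.

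The promoters of 7 of the 8 members matched the RefSeq promoter table; Fosl1 was not among them. In the 250 bases before the start, the full estrogen response element (GGTCANNNTGACC, both strands) matched in 0 of 7 members and in 0.0639% of all promoter entries. Its half-site GGTCA matched in 3 of 7 (Fosb, Jund and Atf3), against 35.2%. The AP-1 site TGANTCA matched in 0 of 7, against 6.75%, and TGACG in 4 of 7 (Fos, Fosb, Junb and Atf3), against 17.8%. TGACG also occurs within TGACGTCA, and TGACNTCA includes TGACGTCA. The 3 members with GGTCA in this window were not those with peaks over it: Jun, Junb and Fos had none. GC content of these 250 bases was 61.2% in Jun, 66.4% in Junb and 58.4% in Fos, against a median of 52.4% over all entries. The members without a peak in the window had 68.8% (Fosb), 65.2% (Atf3), 64.4% (Fosl2) and 47.6% (Jund). Letters in a window are not binding sites, and these matches describe the sequence only.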

How the data were processed

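ERα CUT&RUN peak lists of 3 vehicle and 3 estradiol libraries were used as deposited by the authors. Per the submitters' processing notes, cutadapt, Bowtie2, Picard, SAMtools, deepTools and MACS2 were used on mm10. Versions, roles and any control library are not given in the sources used here. Peak names carry a q-value of 0.01. For each peak the deposited lists give an integer score, a fold enrichment (ratio), a −log10 p, a −log10 q and a summit position. Heights were used only to describe and rank peaks within a list. Summit fragments were estimated by matching the fold (pseudocount 1) and Poisson upper tail to a whole number, which agreed within 0.0002 of −log10 p for 100% of peaks, and rest on that formula. Peaks overlapping or touching (1 bp) were merged into regions. Gene spans and promoters came from RefSeq (GRCm38.p6), without exons, so positions are given as inside a gene, at its ends or outside. A peak overlapping the span of several genes counts for each.

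Group means were compared with two-sided exact permutation tests (Python 3.11.15, numpy 2.4.6, scipy 1.17.1), checked on simulated data. The 8 genes and all gene lists were chosen with earlier results of these data known. All members were named; regions in full were those in 5 or 6 libraries, those in 2 or 3 libraries of one group only, and the highest of each gene, and other regions were named after their values were seen. Mkl1 and Mkl2 of the upstream list are Mrtfa and Mrtfb in the table. In the tests 3 libraries against 3 cannot give p under 0.1. Alternatives were −log10 q of at least 3, a 20 kb window, other gene-end limits, lists of equal length, merging within 500 bp, 50% cover, a replicate block and leaving out each library.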

Additional observations from a re-analysis of the deposited data

How the results depend on the processing

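The 31 regions stand mostly on few fragments, and 3 libraries a group cannot give p under 0.1, so neither the tests nor their repeats can show stability. The exact permutation p was 0.200 to 1 over the tested settings for all AP-1 peaks and for the share per 1000, 0.300 to 1 for distal and 0.600 to 1 for gene-end peaks.

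At −log10 q of at least 3, the estradiol minus vehicle difference was -0.667 for all and for gene-end peaks and 0 for distal peaks. With lists of equal length (5421 peaks) it was -1.67 for all, -0.667 for gene-end and -1 for distal peaks. In replicate 3 only it was -5, -3 and -2, and in replicates 1 and 2 only the gene-end difference was 1.50. With a gene end of 500 bp it was 1 for gene-end and -0.667 for distal peaks, and with 2 kb 0.333 and 0. Leaving out each library gave -3.33 to 3.67 for all, -1 to 1 for gene-end, -2.33 to 2.67 for distal peaks and -0.146 to 0.0131 for the share per 1000. The cause of these turns was not tested.

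Estradiol-only AP-1 regions numbered 0, and 2 when 2 of 3 libraries sufficed. They numbered 0 to 1 over the left-out libraries, with 1 without estradiol replicate 1 (the Fos promoter) and 1 without estradiol replicate 2 (Fosb), where the rule needs fewer libraries. Vehicle-only regions numbered 0 in all 13 settings. Regions in all libraries numbered 4 to 5 over the left-out libraries, and 0 with 50% cover, which compares each peak with the full merged width. The number of members with a gene-end peak in all libraries was 4 with 2 kb and 1 to 2 over the left-out libraries, with Junb added without estradiol replicate 1.

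Under a replicate block on the labelled number, the difference for all AP-1 peaks was 0.333 (exact paired permutation p = 1, smallest possible 0.25). In 2 or more of the 3 pairs, with no pair reversed, 2 regions were listed for estradiol alone, against 0 for vehicle alone. They are the Fos promoter region and the Fosb region beyond the 3′ end given above. Any region in 2 estradiol and 0 vehicle libraries meets this rule, so the count is not a separate observation. Same-numbered libraries did not deviate together over the 39374 regions (r = -0.0293, 0.0213 and -0.0148 for numbers 1, 2 and 3), and not every library correlated best with its own number.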
